A study of Mus musculus with 12 samples.

Results

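Cytosolic ribosomal protein genes encode the proteins of the 60S and 40S ribosomal subunits, and 82 of the 55413 annotated genes outside the mitochondrial chromosome belong to them by the rule used here. Members were all autosomal protein-coding genes of GENCODE M21 on GRCm38 with a symbol of the form Rpl or Rps followed by a number, or Rplp0, Rplp1, Rplp2 or Rpsa, without S6 kinases and pseudogenes. Of these, 73 encode canonical subunits, 43 of the large and 30 of the small subunit. The other 9 are paralogs or genes of another function with a matching symbol (Rpl10l, Rpl22l1, Rpl36al, Rpl39l, Rpl3l, Rpl7l1, Rps19bp1, Rps27l and Rps27rt). Ribosomal genes on the X chromosome are outside the rule and are given apart.

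H4K12 acetylation (H4K12ac) was measured by ChIP-Seq in nuclei of hippocampal neurons, sorted by FACS, from 5 Tip60cKO and 5 control mice. Tip60cKO mice carried CaMKCreERT2, a tamoxifen-inducible Cre driver active in excitatory forebrain neurons, and 2 floxed alleles of Tip60 (Kat5), which encodes a histone acetyltransferase. Controls carried the same floxed alleles without the driver, and both genotypes received tamoxifen for 5 days at an age of 8 to 10 weeks. Nuclei were collected 10 days after the last dose, at an age of 3 months, from mice labelled as male C57BL/6J. The driver does not act in inhibitory neurons, whose nuclei pass the same sort, and in a bulk sample fewer nuclei with the mark cannot be told apart from less mark per nucleus.

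Ribosomal proteins are made in every cell in amounts that match each other and the ribosomal RNA. Their genes are short, are transcribed at high rates from promoters without a strong TATA box, and start in a pyrimidine tract that places their mRNAs under translational control by growth signals. H4K12ac is a mark of active promoters and is found on the nucleosomes that flank the nucleosome-depleted start site.

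The 10 libraries held between 22864189 and 37923809 tags and between 64245 and 136409 peaks. Tip60cKO mouse 5 had the fewest of both and stood apart from the other mice. Among cell type markers, 7 of 8 neuronal genes had a peak within 2 kb of the transcription start site (TSS) in all 10 lists. The median rank score over these 8 genes was 86.5. The exception was Gad1 of inhibitory neurons, with no peak in any list. A peak in all 10 lists was also found at 1 of 4 oligodendrocyte genes (Mbp) and at none of the 4 astrocyte, 4 microglia and 3 endothelial genes, among which Gfap reached 9 lists. Kat5 itself was marked in every mouse, and its rank score was 94.8 ± 5.07 in Tip60cKO and 97.6 ± 2.08 in control mice (SD, n = 5 each), and the lists do not show whether its floxed part was lost.

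Nearly every canonical ribosomal protein gene carried H4K12ac at its start. A peak overlapped the window of 2 kb on either side of the TSS in 79, 73, 73, 75 and 66 of the 82 genes in Tip60cKO mice 1 to 5. The numbers were 78, 79, 76, 74 and 78 in control mice 1 to 5. As a share of the genes this was 89.3 ± 5.75% in Tip60cKO and 93.9 ± 2.44% in control mice (SD, n = 5 each), and the genotypes overlapped. Over all 20807 autosomal protein-coding genes the shares were 57.1 ± 3.00% and 59.2 ± 0.812%. Without Tip60cKO mouse 5 the difference at the ribosomal protein genes was -2.44 percentage points instead of -4.63. Altogether 61 of the 82 genes had a peak in all 10 lists, 8 in 9 lists, 10 in 5 to 8 lists and 3 in no list.

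**Figure D1:**
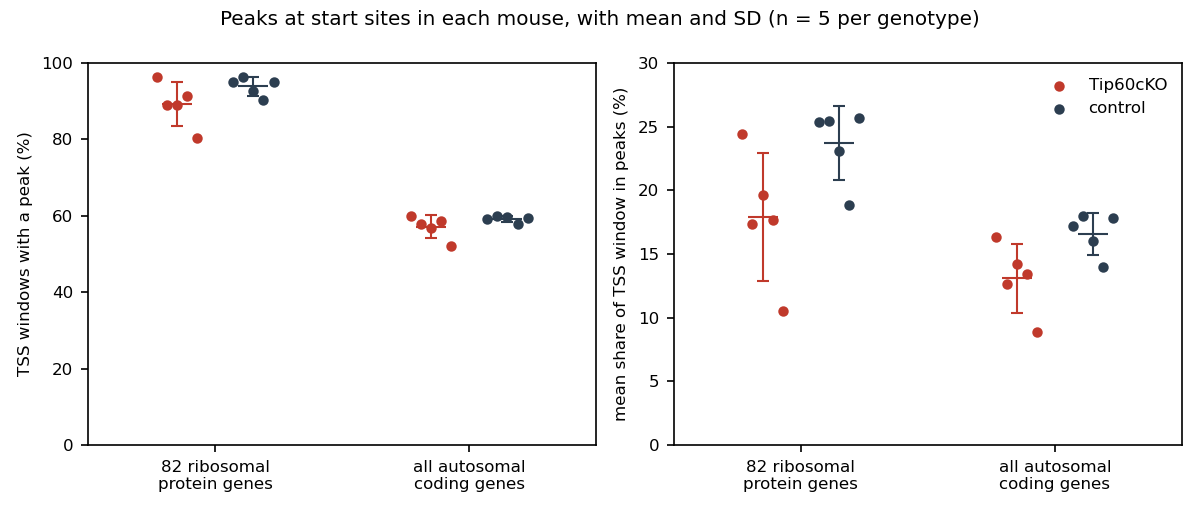
Share of TSS windows with an H4K12ac peak (left, percent) and mean covered share of the 4 kb TSS window (right, percent), 1 point per mouse with mean and SD. Ribosomal protein genes stand above all autosomal coding genes, many of which have no peak, in both panels, and Tip60cKO mouse 5 is the lowest point in each set, at 80.5% and 10.5% for the ribosomal protein genes.

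The 3 genes without any peak were Rpl10l, Rpl39l and Rpl3l, paralogs known from testis and from muscle. All 73 canonical genes had a peak in at least 1 list, and 57 of them in all 10. By subunit this was 37 of 43 large subunit genes (86.0%) and 20 of 30 small subunit genes (66.7%).

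The marked ribosomal protein genes did not have the highest enrichment. The rank score places the strongest peak of a gene by fold enrichment among all annotated genes, from 0 without a peak to 100 for the most enriched. In control mice the 82 genes had a median rank score of 83.6, against 74.1 for autosomal protein-coding genes, many of which have no peak. Among genes with a peak in all 10 lists the order in control mice was turned, with a median of 85.9 for the ribosomal protein genes and 88.2 for coding genes. Coverage showed the same turn, with 21.5 ± 5.08% of the 4 kb window in Tip60cKO and 27.6 ± 2.86% in control mice at these ribosomal protein genes and 25.7 ± 4.88% and 32.1 ± 2.95% at these coding genes (SD, n = 5 each). Among genes with a peak in any list the control medians of the rank score did not turn, at 83.9 and 83.7. In control mice windows with a peak had a median of 83.7 ± 0.644 at ribosomal protein and 85.4 ± 0.237 at coding genes. In Tip60cKO mice these medians were 86.1 ± 1.91 and 86.0 ± 0.813 (SD, n = 5 each). Of the 79 ribosomal protein genes with a peak, 15 had a mean above 90 in control mice, 58 lay between 70 and 90 and 6 below 70.

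Rpl11, whose protein binds 5S rRNA and can hold back Mdm2, had the highest mean rank score in control mice. Its rank scores were 96.2, 97.2, 96.2, 99.3 and 98.9 in control mice 1 to 5. In Tip60cKO mice 1 to 5 they were 95.6, 98.2, 98.0, 96.2 and 93.1. The genotypes overlapped at this gene. In Tip60cKO mice the means of Rpl17, Rpl10a, Rplp2, Rpl7 and Rpl21 were above that of Rpl11. Rps14 (96.4 ± 2.34 in control mice), Rpl27a (95.2 ± 2.59), Rpl19 (95.1 ± 2.64) and Rps6 (94.2 ± 3.81), whose protein is the substrate of the S6 kinases, followed (SD, n = 5 each). Neighbours in this order differed by less than their SD. The value of Rps14 belongs to a GENCODE start that lies 27498 bp from the RefSeq start and shares its window with the start of Ndst1, and at the RefSeq start Rps14 had 86.6 ± 2.73 in control mice.

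Rps6 had rank scores of 99.1, 92.9, 95.6, 88.7 and 94.6 in control mice 1 to 5. In Tip60cKO mice 1 to 5 they were 92.1, 93.1, 95.8, 92.6 and 98.2. Neither genotype was above the other. The lowest canonical gene was Rps9 at 42.1 ± 38.6 in control mice, with a peak in 3 of 5 control and 2 of 5 Tip60cKO mice, and Rpl4, which lines the exit tunnel, had the same counts. Rps27rt was the lowest gene with a peak, at 41.3 ± 37.7.

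**Figure D2:**
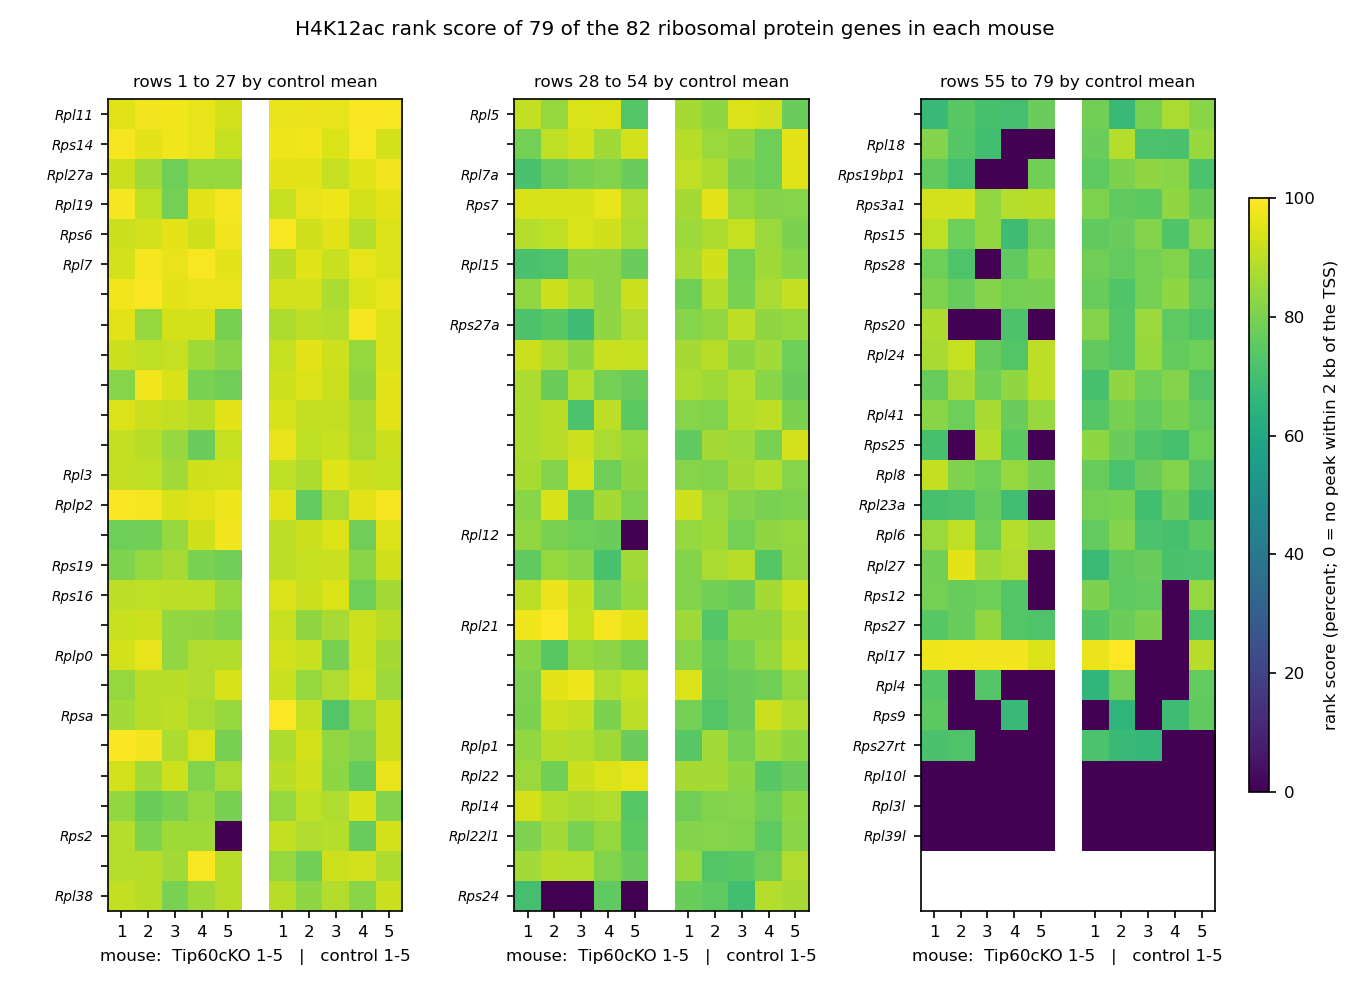
Rank score (color, 0 to 100) of 79 of the 82 genes (rows, in 3 columns ordered by the control mean, a selection of them labelled) in each of the 5 Tip60cKO and 5 control mice. The darkest cells are lists without a peak, which gather toward the end of the order and, among mice, in Tip60cKO mouse 5, which lacked a peak at 16 of all 82 genes.

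The genes chosen for their role lay between 81.9 (Rplp1) and 97.6 (Rpl11) in control mice. The stalk genes Rplp0, Rplp1 and Rplp2, whose proteins recruit translation factors, had rank scores of 88.6 ± 5.80, 81.9 ± 5.04 and 90.6 ± 9.22 (SD, n = 5 each). Rpl5, the partner of Rpl11 on 5S rRNA, had 86.9 ± 7.20. Rpsa, which is also known as a laminin receptor, had 88.0 ± 9.93, and Rps27a, made as a fusion with ubiquitin, had 84.8 ± 3.17. Rps19, the first gene linked to Diamond-Blackfan anaemia, had 89.7 ± 4.23, and Rpl3, near the peptidyl transferase centre, had 91.3 ± 2.75.

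The mark lay on both sides of the start with a gap between. In control mice peaks covered 76.4 ± 4.44% of the ribosomal protein windows in the bin 250 bp downstream of the TSS, 21 ± 3.85% in the bin 50 bp upstream and 56.5 ± 7.05% in the bin 350 bp upstream (SD, n = 5 mice, bins of 100 bp). Coding genes with a peak in any list had 68.5 ± 2.61%, 35.2 ± 3.66% and 42.8 ± 3.83% at these positions. The gap at the start was thus deeper and the upstream shoulder higher at the ribosomal protein genes, as a description of coverage by peaks. In Tip60cKO mice the values were 69.3 ± 10.3%, 17.4 ± 6.63% and 42.6 ± 10.3%, with the same 2-sided shape.

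**Figure D3:**
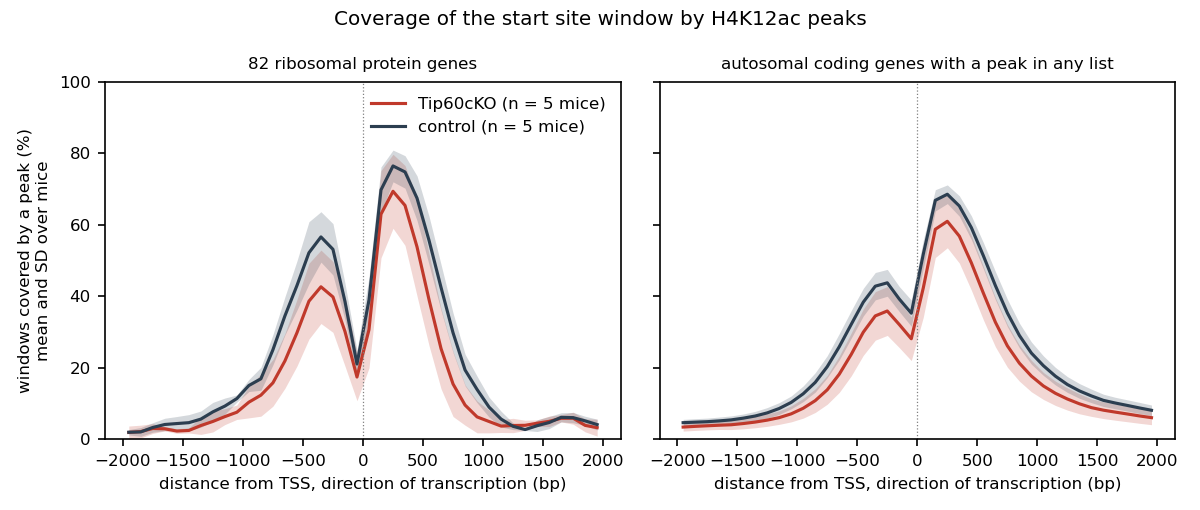
Percent of TSS windows covered by a peak in bins of 100 bp (y axis) against distance from the TSS in the direction of transcription (x axis, bp), mean and SD over 5 mice per genotype. Both genotypes show maxima on either side of a gap at the start, with the highest bin at 250 bp downstream, and the Tip60cKO line lies below the control line at both maxima.

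The summit of the strongest peak was 240 bp downstream of the TSS in control and 199 bp in Tip60cKO mice (median of 79 genes). Medians of single mice overlapped, at 230.5 to 268 bp in control and 188 to 234 bp in Tip60cKO mice. Their means differed by -4.75 bp within lane 8. At coding genes the medians were 214 ± 3.85 and 205 ± 5.55 bp (SD, n = 5 each). The summit lay in an exon of the gene in 48.1% of 385 control summits, in an intron in 27.8% and upstream of the gene in 22.3%. In Tip60cKO mice the shares of 366 summits were 48.1%, 25.7% and 25.1%. At Rpl41, Rps2, Rps10, Rps14, Rpl17 and Rps27rt the summit was over 1 kb away in at least 1 genotype (median over mice).

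A list lacked a peak at 21 of the 82 genes, and most of these gaps fell in Tip60cKO mice. Apart from the 3 genes with no peak at all, Tip60cKO mice 1 to 5 lacked 0, 6, 6, 4 and 13 genes and control mice 1 to 5 lacked 1, 0, 3, 5 and 1. The highest count was in the library with the fewest tags, Tip60cKO mouse 5. Over all autosomal protein-coding genes a peak was also less frequent in Tip60cKO mice, at 57.1 ± 3.00% against 59.2 ± 0.812% (SD, n = 5 each). Tip60cKO mouse 5 was the lowest there too, at 52.2%. At Rpl12, Rpl23a, Rpl27, Rps2 and Rps28, among others, the peak was missing in 1 Tip60cKO list and in no control list. At Rpl18, Rps25 and Rps19bp1 it was missing in 2 Tip60cKO lists, and at Rps20 and Rps24 in 3, again in no control list. Rps27 and Rpl17 were the reverse, with gaps in 1 and 2 control lists alone, and Rps12 lacked a peak in 1 list of each genotype. The share of all genes with gaps in a single genotype was not counted, so these patterns are a description.

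The gaps at Rps24 and Rpl17 depended on the annotated start. The GENCODE start of Rps24 lies 3553 bp upstream of the RefSeq start, beside the start of Polr3a. In its window the rank score was 70.4 and 75.5 in Tip60cKO mice 1 and 4 and 0 in the other 3, against 77.6, 75.1, 69.7, 88.7 and 87.1 in control mice 1 to 5. At the RefSeq start all 10 mice had a peak, with 86.4 ± 5.44 in Tip60cKO and 86.1 ± 4.35 in control mice (SD, n = 5 each). The difference in rank score was thus seen at the GENCODE start and not at the RefSeq start.

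Rpl17 had its strongest peak over 2 kb downstream of the GENCODE start. The rank scores were 97.3, 97.8, 98.3, 98.3 and 94.6 in Tip60cKO mice 1 to 5, and 97.0, 99.7, 0, 0 and 89.4 in control mice 1 to 5. At the RefSeq start, 420 bp further on, all 10 mice had a peak (97.7 ± 1.33 and 94.6 ± 4.22). For 8 of the 82 genes the annotations differed by over 1 kb.

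Whether the loss of TIP60 moved the ribosomal protein genes relative to other genes was tested on the rank score with limma, with p-values adjusted by Benjamini and Hochberg over all 21671 genes with a peak in at least 2 lists. None of the 79 ribosomal protein genes tested was called lower or higher in Tip60cKO mice, which does not show that they were equal, and at an unadjusted p under 0.05 there were 7 lower (8.86%) and 6 higher (7.59%). Over all genes 0.157% were called lower and 0.0784% higher, and 6.68% and 5.10% at the unadjusted threshold. The median difference was -0.01 over the ribosomal protein genes and -0.69 over all genes tested, with 40 of 79 below 0. With rank scores made from the height of the peak at its summit, these medians were -1.60 and -0.61. On that scale 49 of 79 lay below 0, beside 55.8% of all genes, and limma again called none of the 79. Every Tip60cKO mouse lay above every control mouse at Rpl21 and Rps3a1 and below at no gene, where 1.93% and 1.62% of all genes did so.

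The lowest moderated t in this fit belonged to Rpl27a, Rps24, Rps19, Rpl7a and Rps20, and the highest included those of Rps3a1, Rpl21, Rpl6 and Rps7. The lowest adjusted p among the 79 genes was 0.112 with limma. Rps20 had 77.6 ± 5.29 in control mice, while in Tip60cKO mice 1 to 5 it had 87.6, 0, 0, 71.9 and 0. No gene was called with any single mouse left out.

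Peaks covered less of the TSS window in Tip60cKO mice at most ribosomal protein genes, as they did at most genes. The mean covered share of the 4 kb TSS window was 24.4, 17.4, 19.6, 17.6 and 10.5% in Tip60cKO mice 1 to 5 and 25.4, 25.5, 23.1, 18.8 and 25.7% in control mice 1 to 5. Tip60cKO mouse 1 lay among the control mice and control mouse 4 among the Tip60cKO mice. The difference of genotype means was below 0 at 67 of 79 ribosomal protein genes (84.8%) and at 81.0% of all genes tested, with medians of -5.98 and -4.01 percentage points. The difference in the mean covered share was -4.15 percentage points within lane 7 (mice 1 to 3), -8.20 within lane 8 (mice 4 and 5) and -3.92 without Tip60cKO mouse 5, against -5.77 over all mice.

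With limma none of the 79 ribosomal protein genes was called lower or higher in coverage, where 1.53% of all genes were called lower and 0.0369% higher. At an unadjusted p under 0.05, 21 were lower (26.6%) and 0 higher, beside 22.3% and 0.891% of all genes. Without Tip60cKO mouse 1 the fit called 7 genes lower (Rpl19, Rpl38, Rpl7, Rpl7a, Rps19bp1, Rps24 and Rps6), which is 8.86% beside 6.6% of all genes. Without control mouse 4 it called 6 (Rpl14, Rpl19, Rpl23, Rpl24, Rps24 and Rps3a1), which is 7.59% beside 4.29%. Only Rpl19 and Rps24 were in both sets.

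The lowest moderated t in coverage belonged to Rps24, Rpl7a, Rpl19, Rpl7 and Rps6, none of them past the adjusted threshold. At Rpl7a the covered share was 20.1, 20.7, 18.6, 18 and 5.73% in Tip60cKO mice 1 to 5. In control mice 1 to 5 it was 27, 36.5, 27.1, 27 and 37.3%. The genotypes did not overlap at Rpl7a and at Rps24, which 5.23% of all genes tested also showed in this direction. The difference at Rpl7a was -14.3 ± 3.55 percentage points (SE, limma adjusted p = 0.0606).

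Rpl19, which lies at the exit tunnel, had 29.6 ± 9.39% in Tip60cKO and 47.6 ± 6.98% in control mice (SD, n = 5 each, limma adjusted p = 0.0694). At the RefSeq start of Rpl19, at -4707 bp from the GENCODE start, the difference was -1.53 percentage points (limma adjusted p = 0.879) instead of -18.1. At the GENCODE start limma called Rpl19 lower with a lane term, at q below 0.01 and with the same number of peaks per library. Rpl7 had 40.2 ± 7.50% and 53.0 ± 3.97% (limma adjusted p = 0.0825), and Rps6 had 30.9 ± 8.08% and 44.1 ± 4.99% (limma adjusted p = 0.0935). At the other end, Rpl6 (21.4 ± 7.15% and 16.9 ± 4.45%), Rps16 (31.6 ± 5.86% and 27.8 ± 8.46%), Rpl22, Rps14 and Rpl22l1 had the highest t, with limma adjusted p from 0.468 to 0.873. At the RefSeq starts the differences of Rpl22 and Rps14 were below 0.

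The strongest peaks were on average shorter and lower in Tip60cKO mice. Their median length was 431 ± 76.7 bp in Tip60cKO and 551 ± 56.3 bp in control mice at the ribosomal protein genes, and 518 ± 88.4 bp and 658 ± 61.1 bp at coding genes (SD, n = 5 each). Their median summit height was 0.70 ± 0.0494 and 0.847 ± 0.0490 at the ribosomal protein genes, and 0.713 ± 0.0557 and 0.845 ± 0.0341 at coding genes, in fragments at the summit per 1000000 tags of the library. The direction was the same in both sets of genes, and neither was tested. The mice of both genotypes overlapped in these values, except for the height at coding genes.

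Relative enrichment gave a call at 3 ribosomal protein genes. This measure is log2 fold enrichment of the strongest peak minus the median of the library over the 13003 genes with a peak in all lists. Rpl21, Rps3a1 and Rpl6 were higher in Tip60cKO mice by limma, 4.92% of the 61 ribosomal protein genes tested, where 2.77% of all genes were called higher and 0.792% lower. None of the 61 was called lower. Every Tip60cKO mouse lay above every control mouse at 2 of them, Rpl21 and Rps3a1 (3.15% of all genes), and below at none (1.19%). At an unadjusted p under 0.05, 11 were higher (18%) and 5 lower (8.20%), beside 11.7% and 6.18% of all genes. The median difference was 0.08 over the ribosomal protein genes and 0.02 over all genes tested, with 37 of 61 above 0.

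Rpl21, a large subunit gene on chromosome 5 (146832890 to 146837032, plus strand), had the largest difference, 0.73 ± 0.15 (log2, SE, limma adjusted p = 0.00505). Fold enrichment was 8.01, 9.92, 6.14, 8.50 and 6.6 in Tip60cKO mice 1 to 5 and 5.74, 3.84, 5.54, 5.32 and 6.28 in control mice 1 to 5. On the relative scale every Tip60cKO mouse lay above every control mouse. The strongest peak lay at -686 and -633 bp from the TSS in mouse 3 of Tip60cKO and control and downstream in the other mice. The summit height was 1.02, 1.19, 0.863, 1.12 and 0.918 fragments per 1000000 tags in Tip60cKO mice and 1.04, 0.854, 0.789, 0.912 and 1.0 in control mice, and here the genotypes overlapped.

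Rps3a1, a small subunit gene on chromosome 3 (86137940 to 86142702, minus strand), differed by 0.53 ± 0.14 (log2, SE, limma adjusted p = 0.0241). Its fold enrichment was 6.78, 6.17, 4.91, 5.82 and 5.4 in Tip60cKO mice 1 to 5 and 4.91, 4.14, 4.23, 5.24 and 4.43 in control mice 1 to 5. These values overlapped, while on the relative scale and in rank score all Tip60cKO mice lay above all control mice. The summit height was 0.863, 0.731, 0.703, 0.759 and 0.744 fragments per 1000000 tags against 0.71, 0.618, 0.599, 0.766 and 0.606. The covered share went the other way at this gene, with 10.7 ± 4.10% in Tip60cKO and 21.4 ± 5.98% in control mice (SD, n = 5 each), a difference that did not pass the test (limma adjusted p = 0.0958).

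Rpl6, a large subunit gene on chromosome 5 (121204481 to 121209241, plus strand), differed by 0.52 ± 0.14 (log2, SE, limma adjusted p = 0.0303). Fold enrichment was 5.34, 5.73, 4.16, 5.82 and 4.80 in Tip60cKO mice 1 to 5 and 4.21, 5.06, 3.76, 3.46 and 4.07 in control mice 1 to 5. Before centring the mean summit height was lower in Tip60cKO mice, at 0.668 ± 0.0654 against 0.785 ± 0.122 fragments per 1000000 tags in control mice (SD, n = 5 each). Single mice overlapped. Centred on the library median, the height difference was 0.05 (log2).

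The strongest peak at Rpl6 was also another peak in each genotype. Its summit lay between -208 and -300 bp from the TSS, upstream, in 4 of 5 Tip60cKO mice and 217 to 411 bp downstream, in an exon, in all 5 control mice. The strongest downstream peak had a fold enrichment of 4.51 ± 1.15 in the 4 Tip60cKO mice that had such a peak and 4.11 ± 0.605 in the 5 control mice. The upstream peak had 4.77 ± 0.842 in 5 Tip60cKO and 3.01 ± 0.400 in 3 control mice (SD). These splits by flank were made after the values were seen and were not tested.

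The 3 calls differed in how far they rested on single mice. Rpl21 was called with each of the 10 mice left out in turn. Rps3a1 was not called without Tip60cKO mouse 1, 2 or 5 or without control mouse 2 or 3. Rpl6 was not called without Tip60cKO mouse 1, 2, 4 or 5 or without control mouse 1, 3 or 4. Within lanes 7 and 8 the differences were 0.87 and 0.53 at Rpl21, 0.63 and 0.37 at Rps3a1 and 0.43 and 0.65 at Rpl6, so that both lanes had the same direction.

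**Figure D4:**
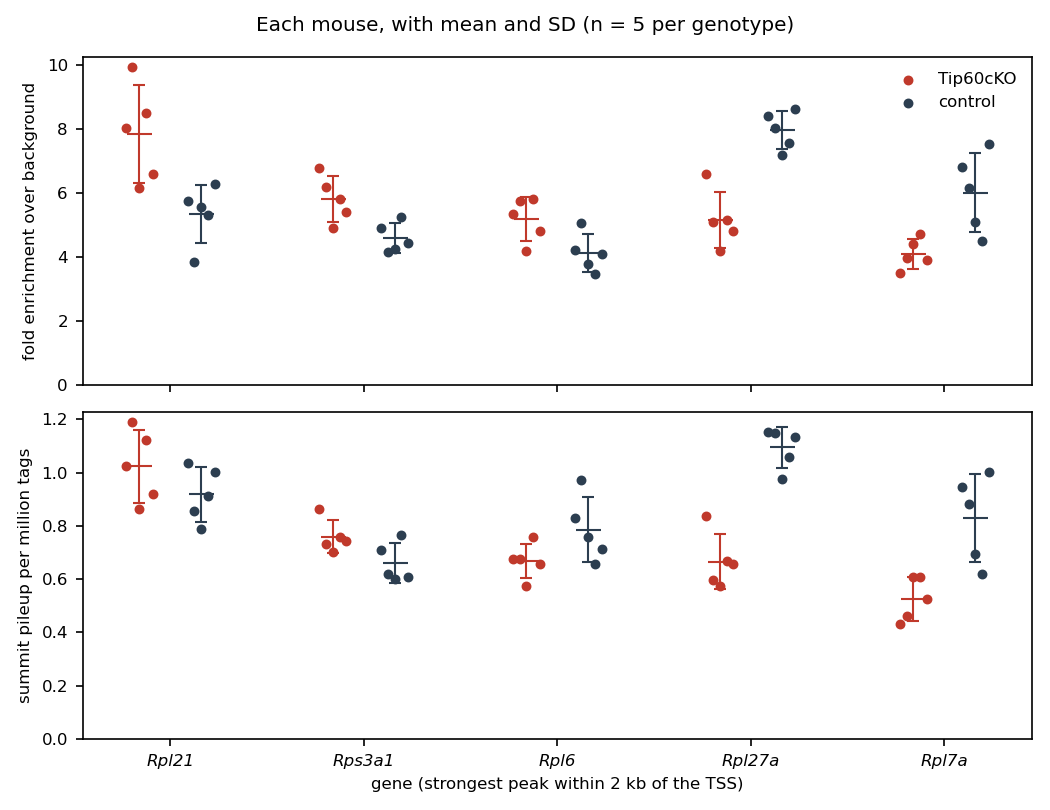
Fold enrichment (top) and summit height in fragments per 1000000 tags (bottom) of the strongest peak at Rpl21, Rps3a1, Rpl6, Rpl27a and Rpl7a, 1 point per mouse with mean and SD. The Tip60cKO means are above the control means at Rpl21, Rps3a1 and Rpl6 in fold enrichment, while at Rpl6 the height is 0.668 in Tip60cKO and 0.785 in control mice.

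The promoters of the called genes are shown to set the mark beside the start site it flanks. Sequences are from RefSeq on GRCm38.p6, 150 bases before to 30 from the RefSeq start on, 5′ to 3′ in the direction of transcription. Rpl21 is named only. Rpl27a and Rpl7a, which had the lowest relative enrichment difference, were added after their values were seen. Capitals mark the ETS motif CCGGAAG, the Sp1 motif GGGCGG, the YY1 motif AAGATGG, the E box CACGTG and the TATA box TATAAA on either strand. They also mark the pyrimidine motif, on the sense strand within 50 bases of the start, which was searched as CTTTCC, as the variant CTTTTC, as the variant CTTTCT and as the variant CTTTTT.

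Rps3a1, chr3:86142639-86142818, minus strand: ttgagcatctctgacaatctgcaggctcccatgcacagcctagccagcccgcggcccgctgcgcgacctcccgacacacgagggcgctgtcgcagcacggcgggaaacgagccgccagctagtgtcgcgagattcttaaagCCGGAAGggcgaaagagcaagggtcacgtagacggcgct

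Rpl6, chr5:121204351-121204530, plus strand: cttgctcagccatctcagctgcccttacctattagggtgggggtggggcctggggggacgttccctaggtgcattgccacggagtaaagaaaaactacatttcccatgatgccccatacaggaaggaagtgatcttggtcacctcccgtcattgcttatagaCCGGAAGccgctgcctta

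Rpl27a, chr7:109519045-109519224, plus strand: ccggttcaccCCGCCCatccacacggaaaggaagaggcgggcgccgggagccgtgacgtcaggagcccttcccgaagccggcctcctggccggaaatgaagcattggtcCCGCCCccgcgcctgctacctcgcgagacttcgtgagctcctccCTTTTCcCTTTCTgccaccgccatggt

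Rpl7a, chr2:26910657-26910836, plus strand: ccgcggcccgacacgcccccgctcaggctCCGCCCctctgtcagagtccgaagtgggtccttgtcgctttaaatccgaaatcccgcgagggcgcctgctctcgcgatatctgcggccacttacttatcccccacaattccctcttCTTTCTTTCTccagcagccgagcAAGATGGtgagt

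Rps3a1 and Rpl6 each held the ETS motif near the start, with no pyrimidine motif marked. Rpl27a and Rpl7a held pyrimidine motifs at the start and the Sp1 motif upstream, and Rpl7a the YY1 motif after the start. These 4 genes are too few to compare motifs with the direction of a difference.

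Of the 82 genes 62 had a promoter in the RefSeq table, read from 250 bases before to 50 after the start. A pyrimidine motif lay within 50 bases of the start on the sense strand in 32 of 62 (51.6%), beside 13.2% of 15703 autosomal protein-coding promoters. The ETS motif was in 24 (38.7%, beside 12.6%), the YY1 motif in 9 (14.5%, beside 6.42%) and the Sp1 motif in 37 (59.7%, beside 48.8%). The E box was in 5 (8.06%, beside 8.11%) and TATAAA in 4 (6.45%, beside 12.9%). Motifs of the pyrimidine group can overlap each other, and a match is a run of letters and not a bound site.

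Fold enrichment divides the summit height by a background that MACS took from the input, with a pseudocount added to both. This background differed between genotypes at the ribosomal protein genes. All 5 mice of a genotype shared 1 input library, so the background has no replicate. Relative to the genome-wide level the median background at the ribosomal protein genes with a peak was 1.0 in each Tip60cKO mouse, and 1.12, 1.08, 1.08, 1.07 and 1.12 in control mice 1 to 5. Among the 61 genes with a peak in all lists the background exceeded 1.2 at 21 in control (34.4%) and at 1 in Tip60cKO mice (1.64%). Among coding genes with a peak in all lists it did so at 18.4% and 7.19%. At Rpl21 the mean background was 1.37 in control and 1.0 in Tip60cKO mice, at Rpl6 1.54 and 1.0, and at Rps3a1 1.10 and 1.0.

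Since fold enrichment is the height over this background, a higher background in control mice alone raises the difference by construction, and the following split is a description. At the 21 genes with a control background above 1.2, a level chosen after the values were seen, the median difference was 0.28 and 20 were above 0. At the other 40 genes the median was -0.02 and 17 were above 0. With the summit height in place of fold enrichment limma called none of the 61 genes, and the median was -0.01. The differences by height were 0.33 at Rpl21 (limma adjusted p = 0.357), 0.48 at Rps3a1 (0.146) and 0.05 at Rpl6 (0.92). Rps15 had the highest control background, 1.66, and a difference of 0.15 by fold enrichment and -0.34 by height.

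**Figure D5:**
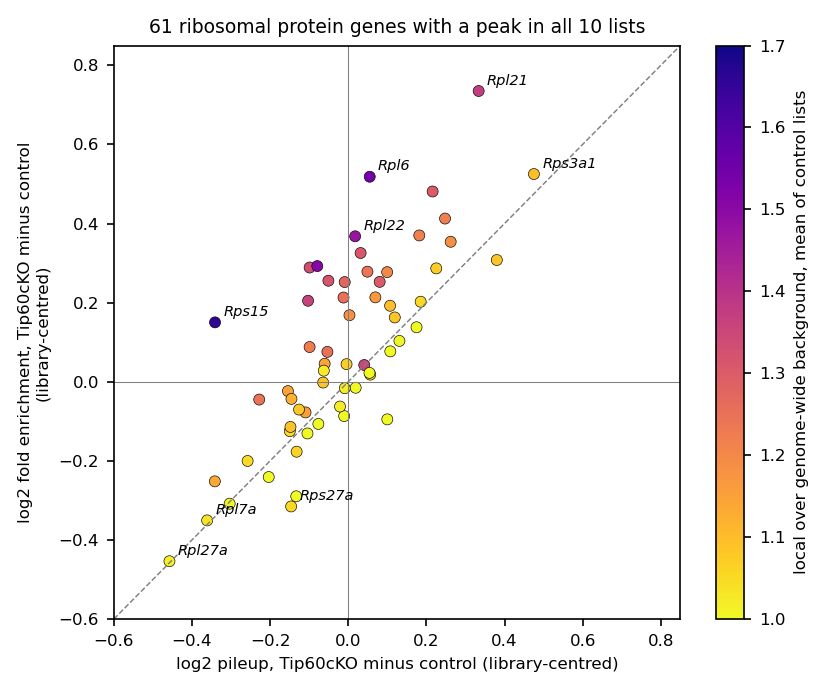
Difference between genotypes (Tip60cKO minus control, log2, centred on the library median) in fold enrichment (y axis) and in summit height (x axis) for the 61 ribosomal protein genes with a peak in all 10 lists, colored by the mean background in control lists relative to the genome. Genes with a high control background, such as Rps15 (1.66) and Rpl6 (1.54), lie above the dashed line of equal differences, while Rpl27a (1.02) lies near it.

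The lowest differences in relative enrichment belonged to Rpl27a, Rpl7a, Rps19, Rpl15 and Rps27a, and none passed the adjusted threshold. At Rpl27a (chromosome 7, 109519147 to 109522367, plus strand) fold enrichment was 6.58, 5.07, 4.16, 5.15 and 4.80 in Tip60cKO mice 1 to 5 and 8.39, 8.02, 7.17, 7.56 and 8.62 in control mice 1 to 5. All Tip60cKO values lay below all control values on this scale and in summit height, but not on the relative scale. The library medians over coding genes also did not overlap on these 2 scales, with fold enrichment of at most 5.37 in Tip60cKO and at least 5.59 in control mice. The relative difference was -0.45 ± 0.14 (log2, SE, limma adjusted p = 0.0578), with a background of 1.02 and 1.0. By summit height it was -0.46 (limma adjusted p = 0.152).

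At Rpl7a fold enrichment was 3.49, 3.97, 4.38, 4.70 and 3.90 in Tip60cKO mice 1 to 5 and 6.81, 6.14, 5.07, 4.48 and 7.52 in control mice 1 to 5. The genotypes overlapped through control mouse 4, and the relative difference was -0.35 ± 0.15 (log2, SE, limma adjusted p = 0.199). At Rps19 fold enrichment was 4.73, 4.85, 5.45, 4.50 and 4.13 in Tip60cKO and 6.78, 6.91, 7.26, 5.10 and 6.95 in control mice, again with control mouse 4 as the low value. The relative difference at Rps19 was -0.29 ± 0.14 (limma adjusted p = 0.253), with a background of 1.13 in Tip60cKO and 1.0 in control mice. Rpl15 had -0.31 ± 0.15 and Rps27a -0.32 ± 0.15 (limma adjusted p = 0.255 and 0.276).

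Below the 3 called genes, Rpl8 had a difference of 0.37 ± 0.14 (log2, SE, limma adjusted p = 0.143). Its background was 1.22 in control and 1.0 in Tip60cKO mice. By summit height the difference at Rpl8 was 0.18.

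The direction of the list as a whole depended on what the libraries were centred on. Centred on all peaks of a library the median difference over the 61 genes was -0.14, and limma called 5 lower (Rpl15, Rpl27a, Rpl7a, Rps19 and Rps27a) and 1 higher (Rpl21), where 7.34% and 0.515% of all genes were called. Without centring it was -0.11, with 6 lower (the same 5 and Rpl9) and Rpl21 higher, beside 7.92% and 0.877% of all genes. The median over all genes was -0.19 and -0.16 on these scales. On both scales the median of the ribosomal protein genes lay above that of all genes.

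By place in the ribosome no group held a call other than the 3 genes above. The large subunit had a median relative enrichment difference of 0.14 over 37 genes (12 below 0) and the small subunit -0.01 over 20 genes (11 below 0). In coverage the medians were -5.93 percentage points over 43 and -6.68 over 30 genes, below 0 at 35 and 27. The 4 stalk genes (Rplp0, Rplp1, Rplp2 and Rpl12) had a median of -8.87 percentage points, the 7 exit tunnel genes -7.48 and the 13 small subunit head genes -6.62. Rpl5 and Rpl11 of the 5S particle had -4.64. Limma called none of these lower or higher in rank score or coverage.

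Rplp0, the stalk base, had similar values in both genotypes. Its rank scores were 93.6, 96.3, 83.9, 88.1 and 88.6 in Tip60cKO mice 1 to 5 and 93.0, 91.8, 79.3, 92.3 and 86.4 in control mice 1 to 5. The covered share was 10.6% and 10.3% (means of 5 mice each). The values overlapped throughout.

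Some ribosomal protein genes share their window with another coding start (20 of 82), and 28 host snoRNAs, which guide rRNA modification, in introns. Among canonical genes the 28 snoRNA hosts had a median control rank score of 85.4 and the other 45 had 83.9. The median rank difference was -1.89 in hosts and 0.84 in the others. In the 19 canonical genes with another coding start it was -6.70, and 0.42 in the other 54. These are descriptions of classes set after the lists were chosen and were not tested.

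Of 7 ribosome genes outside the rule limma tested 6 in rank score and coverage and 1 in relative enrichment, and called none. Fau had a rank score of 58.8 ± 32.9 in Tip60cKO and 80.4 ± 6.95 in control mice and Rack1 of 64.7 ± 36.3 and 78.6 ± 6.17 (SD, n = 5 each), each without a peak in 1 list. Of the 7, the X-linked genes had a peak in the fewest lists, with Rpl10 in 6 lists, Rpl36a in 7, Rpl39 in 2 and Rps4x in 1. The values were not adjusted for the 1 X chromosome of mice labelled as male.

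Among 16 other genes whose mRNAs start in a pyrimidine tract, mostly translation factors but also Npm1, Nap1l1, Hnrnpa1, Tpt1 and Naca, limma called none in rank score or coverage, nor any of the 12 tested in relative enrichment. Their median coverage difference was -4.70 percentage points. Of 29 ribosome biogenesis genes 1 was called lower in coverage, beside 1.53% of all genes. It was Nop16, with 5.30% in Tip60cKO and 28.1% in control mice (limma adjusted p = 0.0260). Of 77 mitochondrial ribosomal protein genes none was called in rank score or coverage. In relative enrichment 2 of 61 were called higher, beside 2.77% of all genes. They were Mrps14 by 0.63 ± 0.16 and Mrpl33 by 0.48 ± 0.13 (log2, SE, limma adjusted p = 0.0220 and 0.0333). Mitochondrial and cytosolic ribosomal protein genes had a peak in all lists in 78.2% and 74.4%, and a median control rank score of 84.1 and 83.6, values set side by side without a test.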

How the data were processed

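H4K12ac peak lists of 10 mice, 5 Tip60cKO and 5 control, were grouped by their labelled genotype. Per the file headers the authors called peaks in each mouse with MACS2 2.1.0.20140616 against 1 input library per genotype at a q-value below 0.1. The study's methods name STAR for mapping and SAMtools for removal of duplicates, and the labels name mm10 (GRCm38). How reads with several matches were treated, which matters for genes with processed pseudogenes, is not given in the sources used here. The deposited lists hold for each peak a pileup signal (coverage at the summit), a fold enrichment ratio and −log10 p- and q-values; the last 2 entered only an alternative. No read counts were used.

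The strongest peak by fold enrichment within 2 kb of each GENCODE M21 start was converted to a rank score (0 without a peak) and a log2 fold enrichment centred on the library median, and all peaks in the 4 kb window gave its covered percent. Each was fitted with limma 3.58.1 (R 4.3.3) by genotype, with Benjamini-Hochberg adjustment over all genes tested (threshold 0.05). On simulated data each fit missed nearly all of the smallest differences put in. In rank score and coverage this also held for the middle size. A lack of calls therefore does not show equality. The background is the level that gives the fold enrichment when the summit pileup is divided by it, after a pseudocount of 1 is added to both. It is given relative to the genome-wide level. Python 3.11.15 did the rest.

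Named genes were those called in any fit, the 5 lowest and 5 highest moderated t per fit, those lacking a peak in any list, the 5 highest and 5 lowest by control rank score, and 10 chosen for their role; some of them are not reported here. Members and lists were chosen with earlier results of these data known. Alternatives were other windows, starts, filters, centrings, strength measures, limma settings, a lane term, a replicate block and each mouse left out. The labels give male C57BL/6J mice, while the study's methods give either sex and C57BL/6N.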

Additional observations from a re-analysis of the deposited data

Results flagged for a closer look

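In 6 groups of 5 mice a single mouse lay far from the others, where chance marks about 1 in 20 groups and 107 groups were examined. Tip60cKO mouse 5, the library with the fewest tags, gave 3 of them. Its covered share at Rpl7a was 5.73%, with the other Tip60cKO mice between 18 and 20.7%. Its rank score at Rpl17 was 94.6, with the others between 97.3 and 98.3. Its covered share at Rplp0 was 13.2%, above the others at 9.50 to 10.4%. The remaining 3 were control mouse 4 at Rps19, where the rank score was 82.3 (others 90.2 to 92.9), fold enrichment 5.10 (others 6.78 to 7.26) and summit height 0.693 fragments per 1000000 tags (others 0.897 to 0.978).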

How the results depend on the processing

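No called difference changed sign. In rank score the count of higher genes was 1 (Rpl21) with a trended robust prior (1.27%, beside 0.258% of all genes). It was 2 by complete separation of the mice, which 1.93% of all genes showed in this direction. In coverage the count of lower genes was 2 at q below 0.01 (2.53%, beside 1.67% of all genes), 2 with the same number of peaks per library (2.53%, beside 3.61%), 1 in a 1 kb window (1.30%, beside 2.21%), 1 with a lane term (1.27%, beside 2.95%) and 2 by separation (5.23% of all genes), and with each mouse left out it ranged from 0 to 7; the median difference was -11.9 in the 1 kb window. In relative enrichment the count of lower genes was 1 with the same number of peaks (1.79%, beside 0.865% of all genes), 5 centred on all peaks (8.20%, beside 7.34%), 6 without centring (9.84%, beside 7.92%) and 1 among coding genes alone (1.64%, beside 1.09%), and 0 to 1 with each mouse left out. The count of higher genes was 0 by summit height, 1 centred on all peaks (1.64%, beside 0.515%), 1 without centring (1.64%, beside 0.877%), 4 among genes with a peak in at least 8 lists (5.41%, beside 2.85%), and 1 to 3 with each mouse left out. Rpl27 was the gene added with at least 8 lists and was also called without Tip60cKO mouse 5, and Rpl28 without control mouse 1. The median difference was -0.0104 by summit height, -0.14 centred on all peaks and -0.11 without centring, each with the sign opposite to the 0.08 reported. The median rank score difference, near 0, lay above 0 in 8 alternatives. It was -1.60 with strength by summit height, -0.93 without control mouse 4 and -0.70 without Tip60cKO mouse 1. The Rps24 rank score difference went from -50.5 to 0.30 with RefSeq starts. The cause was not tested.

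Whether replicate numbers pair the mice could not be settled. Correlations of same-numbered mice ran from -0.15 to 0.13 in coverage, -0.04 to 0.06 in rank score and -0.01 to 0.07 in relative enrichment. Those of differently numbered mice ran from -0.30 to 0.36, -0.08 to 0.09 and -0.07 to 0.06. A Tip60cKO mouse matched the control mouse of its own number best in 1, 3 and 2 of 5 cases. With a replicate block 0 ribosomal protein genes were called in rank score, beside 30 lower and 5 higher among all 21671 genes. In coverage 0 were called, and over all genes the calls in coverage went from 331 lower to 0. In relative enrichment 4 were called higher (6.56%, beside 3.04% of all genes) and 0 lower (beside 0.938%). RefSeq starts, the background level of 1.2 and the split by flank were chosen after seeing the data. Without a filter most genes had no variance, which limits those fits. Depth and 1 input per genotype limit the precision of each peak.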
